A study of Homo sapiens with 6 samples.

Results

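The nuclear genes for the subunits of the mitochondrial respiratory chain and of ATP synthase were examined on 6 microarrays of Du145 cells, a human prostate carcinoma line. They were taken by gene symbol: the NDUFA, NDUFB, NDUFC, NDUFS and NDUFV series with NDUFAB1 for complex I, SDHA to SDHD for complex II, the UQCR series and CYC1 for complex III, COX4 to COX8 for complex IV, and the ATP5F1, ATP5M and ATP5P series for complex V. The symbols matched 89 probe sets with a single gene symbol, which stand for 82 of the 18417 genes tested, 1 probe set per gene being kept. Of the 82, 79 are protein-coding: 34 in complex I, 3 in complex II, 8 in complex III, 17 in complex IV and 17 in complex V. The other 3 are the pseudogenes UQCRBP1 and ATP5F1EP2 and the non-coding transcript NDUFV1-DT. Genes seen only through probe sets that share several symbols, such as NDUFS5, NDUFC2 and ATP5F1E, were not analysed here.

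The 3 groups compared held 2 arrays each. One is control cells, another is Du145 cells infected with a lentivirus carrying a short hairpin RNA against TSC2 (shTSC2), and the last holds cells labelled as adapted from the knockdown (shTSC2-adapted). All cells grew in high-glucose medium with 10% serum at 1% oxygen, and RNA was collected after 24 h of hypoxia. Nothing in the labels describes the adaptation, a control virus, the number of hairpins, or separate cultures behind the arrays of a group. A p-value here is thus set against array-to-array spread, which may be purely technical. TSC2 restrains the growth kinase mTORC1, and the comparisons ask which transcripts differ once TSC2 is lowered and after adaptation.

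The respiratory chain passes electrons from NADH at complex I and from succinate at complex II through ubiquinone to complex III, on by cytochrome c to complex IV, and there to oxygen. Complexes I, III and IV pump protons, and complex V, the ATP synthase, uses the proton gradient to make ATP. Complexes I, III, IV and V mix subunits encoded in the nucleus with subunits encoded in mitochondrial DNA, whereas complex II is wholly nuclear. Transcription of the nuclear genes is known to draw on NRF1, GABP, YY1 and estrogen-related receptors with PGC-1 coactivators, and mTORC1 is known to act on PGC-1 and YY1 and on the translation of some mitochondrial proteins. Low oxygen is known to lower respiration through HIF-1, with a switch of subunit isoforms as one route.

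All values are log2 intensities of the deposited, RMA-normalized table. A change is a difference of group means with its standard error (SE, n = 2 arrays per group), and adjusted p-values are two-sided, from limma over all 18417 genes, with a threshold of 0.05. TSC2 stood at 7.52 and 7.59 on the control arrays, 6.67 and 6.55 in shTSC2, and 6.54 and 6.48 in shTSC2-adapted, so it fell by 0.945 (adjusted p = 0.00102) and 1.045 (adjusted p = 0.0241) against control. Median intensities over all 33297 probe sets ran from 58.1 to 63.1. The epithelial keratins KRT8 (11.22 to 11.50) and KRT18 (11.23 to 11.50) were bright on all arrays, while the fibroblast list showed no call in any comparison. Of 8 epithelial markers, KRT7 rose and EPCAM, KRT19 and CD44 fell in shTSC2, and the summed intensity of the list was 6828 to 7284 in control, 7533 to 7875 in shTSC2 and 7975 to 8009 in shTSC2-adapted. Over all genes, 6.87% rose and 13.9% fell in shTSC2 against control. Of 8 immune markers measured, CD68 and FCER1G rose in shTSC2, and 5 of the 8 had a mean level at or under the lower quartile of all genes. The summed intensity of that list was 391 to 402 in control, 534 to 549 in shTSC2 and 422 to 447 in shTSC2-adapted, with the leukocyte marker PTPRC at 3.49 to 3.58 throughout, near the floor. The part of these markers in the results below was not tested. In bulk RNA, fewer cells of a kind and less RNA per cell cannot be told apart.

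Subunit genes were mostly higher in fresh TSC2 knockdown cells. Of the 82 genes, 28 rose in shTSC2 against control and 2 fell, where 6.87% of all genes rose and 13.9% fell. The 28 were all protein-coding, so 28 of 79 subunit genes rose (35.4%), 2 fell and 49 did not pass. The rises were modest, from 0.36 to 0.88 on the log2 scale, or 1.28-fold to 1.84-fold. The median over the 79 was 0.255, against 0.03 over all genes, and 66 of the 79 differences were positive. Both shTSC2 arrays lay above both control arrays in 51 of the 82 genes and below in 6, where 32.4% and 29.6% of all genes did. Against the control mean, the median of the 79 was 0.33 on the first shTSC2 array and 0.215 on the second, 0.055 and 0.165 on the shTSC2-adapted arrays, and 0.04 and -0.04 on the control arrays. The count of rises rested on the control arrays: it was 11 without the first of them, with 1.82% of all genes rising, and 2 without the second, with 1.24% of all genes rising.

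**Figure D1:**
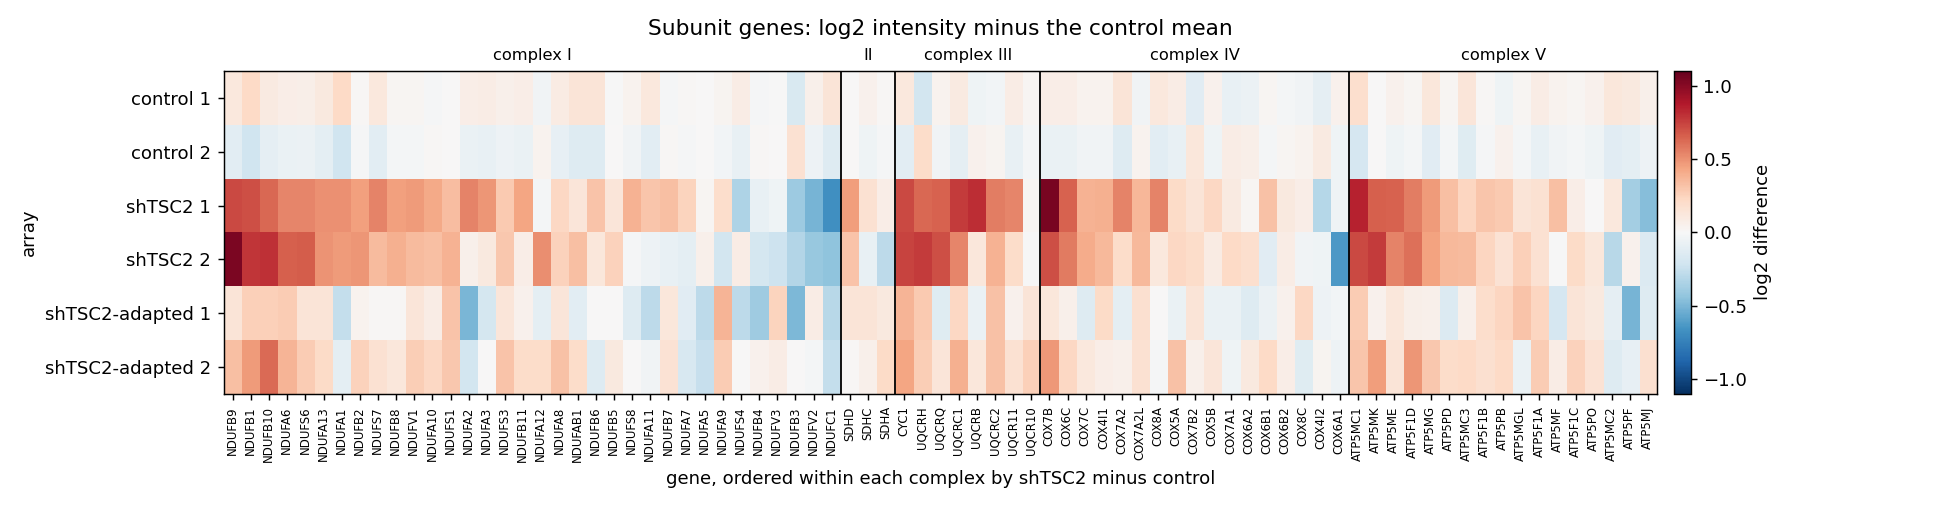
Log2 intensity minus the mean of the control arrays for the 79 subunit genes (columns, grouped by complex and ordered by the shTSC2 change) on the 6 arrays (rows), with red for higher and blue for lower. Most columns are red on both shTSC2 arrays, 66 of 79 mean differences being positive, and paler on the shTSC2-adapted arrays.

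In complex I, the NADH dehydrogenase, 12 of 34 subunit genes rose in shTSC2, 2 fell and 20 did not pass, with a median of 0.25. Of its 7 conserved core subunits of nuclear origin, 6 were measured, and 3 of them rose and 1 fell. NDUFV1, which binds the flavin that accepts electrons from NADH, read 10.03 and 9.98 in control, 10.47 and 10.35 in shTSC2, and 10.14 and 10.28 in shTSC2-adapted, a rise of 0.405 in shTSC2 (SE 0.10, adjusted p = 0.0287). NDUFS1, the largest iron-sulfur subunit, read 9.50 on both control arrays, 9.84 and 9.88 in shTSC2, and 9.81 and 9.80 in shTSC2-adapted (shTSC2 change 0.36, SE 0.09, adjusted p = 0.0274). NDUFS7, another iron-sulfur subunit, read 7.77 and 7.54 in control, 8.20 and 8.0 in shTSC2, and 7.67 and 7.82 in shTSC2-adapted (0.445, adjusted p = 0.0432), and it passed in 7 of 17 alternatives. In these 3 genes both shTSC2 arrays lay above both control arrays. NDUFS3 read 9.21 and 9.09 in control and 9.44 and 9.45 in shTSC2 (0.295, adjusted p = 0.0910), and NDUFS8 read 8.53 and 8.46 in control and 8.88 and 8.48 in shTSC2 (0.185, adjusted p = 0.416), neither passing.

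The core subunit NDUFV2, an iron-sulfur protein that sits beside NDUFV1 in the NADH-oxidising module, went the other way. It read 9.01 and 8.90 in control, 8.44 and 8.54 in shTSC2, and 9.04 and 8.93 in shTSC2-adapted, so both shTSC2 arrays lay below all 4 others. It fell by 0.465 in shTSC2 (SE 0.10, adjusted p = 0.0164). Its second probe set gave nearly the same values on each array (8.95, 8.90, 8.44, 8.52, 9.06 and 8.93 in the same order), so it is no separate check. NDUFC1, an accessory subunit of the membrane arm, also fell, from 9.27 and 8.98 in control to 8.45 and 8.68 in shTSC2, with 8.82 and 8.86 in shTSC2-adapted (shTSC2 change -0.56, SE 0.13, adjusted p = 0.0223). Neither fall passed with quantile normalization (adjusted p = 0.0606 for NDUFV2 and 0.0618 for NDUFC1) or without either control array, and NDUFC1 did not pass without the first shTSC2 array.

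Among the 28 accessory subunits of complex I, 9 rose and 1 fell. The NDUFB series, which lies in the distal membrane arm, held 5 of the rises in 11 genes. NDUFB9 read 9.49 and 9.26 in control, 10.10 and 10.41 in shTSC2, and 9.52 and 9.71 in shTSC2-adapted, the largest rise of all 82 genes (0.88, SE 0.14, adjusted p = 0.00525). NDUFB1 went from 8.89 and 8.46 to 9.38 and 9.46 in shTSC2, with 8.94 and 9.14 in shTSC2-adapted (shTSC2 change 0.745, SE 0.15, adjusted p = 0.0136). NDUFB10 went from 7.91 and 7.71 to 8.44 and 8.61, with 8.07 and 8.43 in shTSC2-adapted (0.715, SE 0.15, adjusted p = 0.0131). In these 3 genes the shTSC2 arrays lay above all others. The series was not uniform: NDUFB3 (-0.36, adjusted p = 0.210) and NDUFB4 (-0.135, adjusted p = 0.575) stood below control without passing. NDUFA6, NDUFA10, NDUFA13 and NDUFS6 also rose, NDUFA6 and NDUFS6 by 0.60 each, and NDUFA9, which sits at the junction of the arms, stood at -0.005 (95% interval -0.33 to 0.32).

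Complex II, succinate dehydrogenase, also belongs to the citric acid cycle. Its membrane anchor SDHD read 9.25 on both control arrays, 9.71 and 9.56 in shTSC2, and 9.39 and 9.26 in shTSC2-adapted, a rise of 0.385 in shTSC2 (SE 0.10, adjusted p = 0.0356). The second SDHD probe set gave 0.17 and did not pass (adjusted p = 0.248), and the mean of both sets did not pass either. By probe set number, the set kept lies nearest to those of chromosome 1 genes. The second lies among those of chromosome 11 genes, and SDHD is on chromosome 11. Whether the set kept reads SDHD itself was not tested. The flavoprotein SDHA read 10.73 and 10.71 in control, 10.79 and 10.43 in shTSC2, and 10.83 and 10.93 in shTSC2-adapted. Its shTSC2 change was -0.11 (95% interval -0.42 to 0.20, adjusted p = 0.612), the second shTSC2 array standing lowest of the 6. The other anchor, SDHC, read 9.58 and 9.49 in control, 9.70 and 9.45 in shTSC2, and 9.68 and 9.59 in shTSC2-adapted (0.04, -0.23 to 0.31, adjusted p = 0.846). Its second set, dimmer at 8.04 to 8.22, did not pass either (0.055, adjusted p = 0.755). SDHC is on chromosome 1, and the second set's number lies nearest to those of chromosome 1 genes. The number of the set kept lies among those of chromosome 17 genes, and what it reads was not tested. SDHB was not analysed here.

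Complex III, the cytochrome bc1 complex, had the largest share of rises, 5 of 8 genes, with a median of 0.56 and no fall. CYC1, the haem-bearing cytochrome c1, read 9.70 and 9.46 in control, 10.31 and 10.32 in shTSC2, and 9.95 and 10.01 in shTSC2-adapted, so the 3 groups did not overlap and shTSC2-adapted lay between the others. It rose by 0.735 in shTSC2 (SE 0.11, adjusted p = 0.00375), the lowest adjusted p of the 82 genes, and passed in all 17 alternatives run. UQCRQ, a small accessory subunit, read 9.16 and 9.09 in control, 9.77 and 9.83 in shTSC2, and 8.99 and 9.26 in shTSC2-adapted, so the adapted arrays stood to either side of the control arrays (shTSC2 change 0.675, SE 0.12, adjusted p = 0.00659). UQCRH, the hinge protein near cytochrome c1, read 7.39 and 7.79 in control, 8.22 and 8.36 in shTSC2, and 7.88 and 7.86 in shTSC2-adapted (0.70, SE 0.14, adjusted p = 0.0127). The adapted arrays lay above the control arrays and below the shTSC2 arrays in UQCRH. The core protein UQCRC1 read 9.29 and 9.10 in control, 9.96 and 9.73 in shTSC2, and 9.42 and 9.59 in shTSC2-adapted (0.65, adjusted p = 0.0106). Its partner UQCRC2 read 10.09 and 10.15 in control, 10.68 and 10.50 in shTSC2, and 10.44 on both adapted arrays (0.47, adjusted p = 0.0161). UQCR10 stood at 0.01 (95% interval -0.21 to 0.23), and UQCR11 (0.37) and UQCRB (0.47) did not pass (adjusted p = 0.0974 and 0.163). The iron-sulfur subunit UQCRFS1 was not analysed here.

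**Figure D2:**
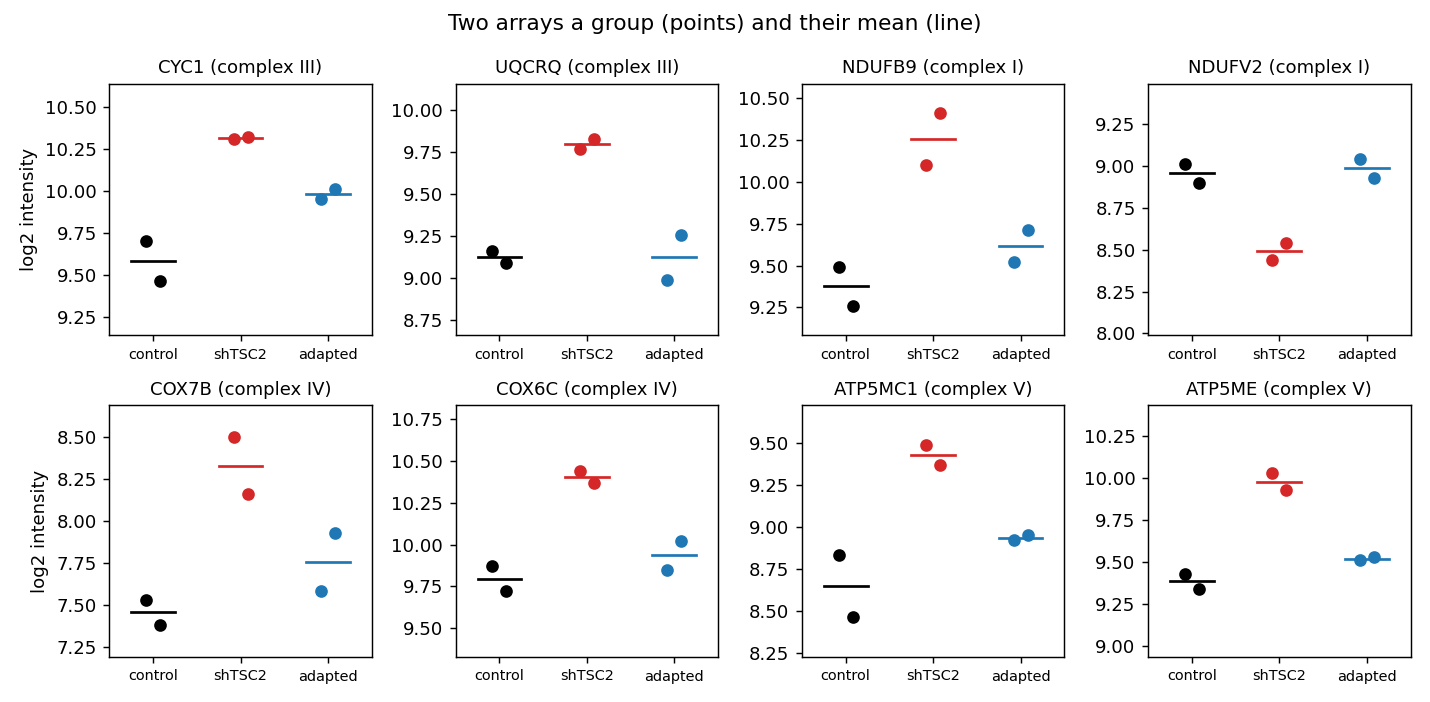
Log2 intensity (y axis, each panel spanning the same range) of 8 genes on both arrays of each group (points) with the group mean (line). In CYC1, NDUFB9, COX7B, ATP5MC1 and ATP5ME the shTSC2 arrays lie above all others and the adapted arrays above the control arrays, the adapted arrays overlap the control arrays in UQCRQ and COX6C, and NDUFV2 is lower in shTSC2 only.

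In complex IV, cytochrome c oxidase, 5 of 17 genes rose and none fell, with a median of 0.175. COX7B, a small transmembrane subunit, read 7.53 and 7.38 in control, 8.50 and 8.16 in shTSC2, and 7.58 and 7.93 in shTSC2-adapted, a rise of 0.88 in shTSC2 (SE 0.16, adjusted p = 0.00842). COX6C read 9.87 and 9.72 in control, 10.44 and 10.37 in shTSC2, and 9.85 and 10.02 in shTSC2-adapted (0.61, SE 0.11, adjusted p = 0.00746). COX7C went from 9.49 and 9.42 to 9.84 and 9.86 in shTSC2, with 9.31 and 9.57 in shTSC2-adapted (0.395, SE 0.11, adjusted p = 0.0459), the highest adjusted p among the 28 rises. COX4I1, the common form of the regulatory subunit 4, and COX7A2L, a factor that joins complexes III and IV into supercomplexes, rose by 0.375 (8.06 to 8.44 in group mean, adjusted p = 0.0337) and 0.36 (8.93 to 9.29, adjusted p = 0.0288). In all 5 genes the shTSC2 arrays lay above the control arrays, with no overlap.

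Several subunits of complex IV have isoforms that differ by tissue or oxygen. COX4I2, the isoform linked to low oxygen and to lung, read 4.96 and 5.16 in control, 4.75 and 5.01 in shTSC2, and 5.00 and 5.09 in shTSC2-adapted, around the lower quartile of all genes (5.02), and did not pass in any comparison. COX6B2 (3.80 to 3.93), COX7B2 (3.54 to 3.87) and COX8C (4.44 to 4.80), known from testis, lay below that quartile on all arrays, where a reading says little about change, and the muscle form COX7A1 read 4.90 to 5.20. The muscle form COX6A2 read 6.80 to 7.13 and the widely expressed COX6A1 10.55 and 10.45 in control, 10.45 and 9.87 in shTSC2, and 10.47 and 10.44 in shTSC2-adapted. The low second shTSC2 array of COX6A1 was also the low one of its second probe set (9.64 against 10.01 to 10.14 on the others). By number, that second set lies between those of NDUFA2 on chromosome 5 and COX7A2 on chromosome 6, while COX6A1 is on chromosome 12. What the second set reads was not tested, so it is no separate check. COX6A1 (-0.34, adjusted p = 0.228), COX6B1 (0.10, adjusted p = 0.719), COX7A2 (0.375, adjusted p = 0.133) and COX8A (0.33, adjusted p = 0.184) did not pass.

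NDUFA4 and NDUFA4L2 now carry the symbols COXFA4 and COXFA4L2, since the former proved to be a complex IV subunit, and so fall outside the symbols used. COXFA4 read 8.27 and 8.04 in control and 8.45 and 8.50 in shTSC2 (0.32, adjusted p = 0.121). COXFA4L2, a target of HIF-1, stood at 0.01 (95% interval -0.24 to 0.26, adjusted p = 0.961), with a mean level under the median of all genes. A further paralogue, COXFA4L3, named here after its values were seen, is known as an inflammation-induced gene whose product can take the place of COXFA4. It read 8.48 and 8.10 in control, 9.91 and 10.17 in shTSC2, and 8.31 and 8.82 in shTSC2-adapted. Its rise of 1.75 in shTSC2 (SE 0.20, adjusted p = 0.00148) was larger than that of any of the 82 genes, and it fell again in shTSC2-adapted against shTSC2 (-1.475, adjusted p = 0.00521).

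In complex V, 5 of 17 genes rose and none fell, with a median of 0.22. The rises were mostly in the membrane part, 4 of 9 genes. In the F1 part (ATP5F1 series, which includes the central stalk) 1 of 4 rose. In the peripheral stalk (ATP5P series) 0 of 4 did, the lowest adjusted p there being that of ATP5PD (0.345, adjusted p = 0.102). ATP5MC1 encodes subunit c, which forms the rotating ring. It read 8.83 and 8.46 in control, 9.49 and 9.37 in shTSC2, and 8.92 and 8.95 in shTSC2-adapted, a rise of 0.785 (SE 0.13, adjusted p = 0.00666). The genes ATP5MC2 and ATP5MC3 encode the same mature subunit c with other import sequences. ATP5MC2 stood at -0.095 (95% interval -0.46 to 0.27, adjusted p = 0.718) and ATP5MC3 at 0.295 (0.01 to 0.58, adjusted p = 0.139). ATP5MC3 was the dimmest, at 5.59 to 6.07. Only ATP5MC1 of the 3 passed, and the differences between them were not tested.

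ATP5MK and ATP5ME are small membrane subunits linked to the dimer form of the enzyme. ATP5MK read 9.86 on both control arrays, 10.52 and 10.63 in shTSC2, and 9.91 and 10.32 in shTSC2-adapted (0.715, SE 0.14, adjusted p = 0.0117). Its second probe set gave 0.785 (adjusted p = 0.00376). By number, the set kept for ATP5MK lies nearest to those of X chromosome genes. The second lies nearest to those of chromosome 10 genes, and ATP5MK is on chromosome 10. Whether the set kept reads ATP5MK itself was not tested. ATP5ME read 9.43 and 9.34 in control, 10.03 and 9.93 in shTSC2, and 9.51 and 9.53 in shTSC2-adapted (0.595, SE 0.10, adjusted p = 0.00501). ATP5MG rose by 0.455 (adjusted p = 0.0416), and ATP5F1D, the delta subunit of the central stalk, by 0.585 (adjusted p = 0.0253). The catalytic beta subunit ATP5F1B read 12.34 and 12.31 in control, 12.63 and 12.56 in shTSC2, and 12.52 and 12.50 in shTSC2-adapted (0.27, adjusted p = 0.0769). ATP5F1A (0.17) and ATP5F1C (0.14) did not pass (adjusted p = 0.275 and 0.380). ATP5MJ, a small membrane subunit, stood at -0.31 (adjusted p = 0.198).

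The median shTSC2 change was 0.56 in complex III, 0.25 in complex I, 0.22 in complex V, 0.175 in complex IV and 0.04 in complex II. Over the alternatives run, the median of complex III lay between 0.46 and 0.66, that of complex I between 0.19 and 0.37, of complex IV between 0.17 and 0.345 and of complex V between 0.15 and 0.31. That of complex II, with 3 genes, ran from -0.085 without the first shTSC2 array to 0.165 without the second and was -0.005 without the second control array, so its sign depended on single arrays. Only complex III had a lower quartile (0.445) above the upper quartile of all genes (0.175). These are descriptions of 8 to 34 genes a complex, and of 3 in complex II, and differences between complexes were not tested. The 10 subunit genes with a mean level under the median of all genes held no call. The brightest 25% of all genes held 63 of the 79 subunit genes and 26 of the 28 rises. There 11.8% of all genes rose and 23.9% fell.

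**Figure D3:**
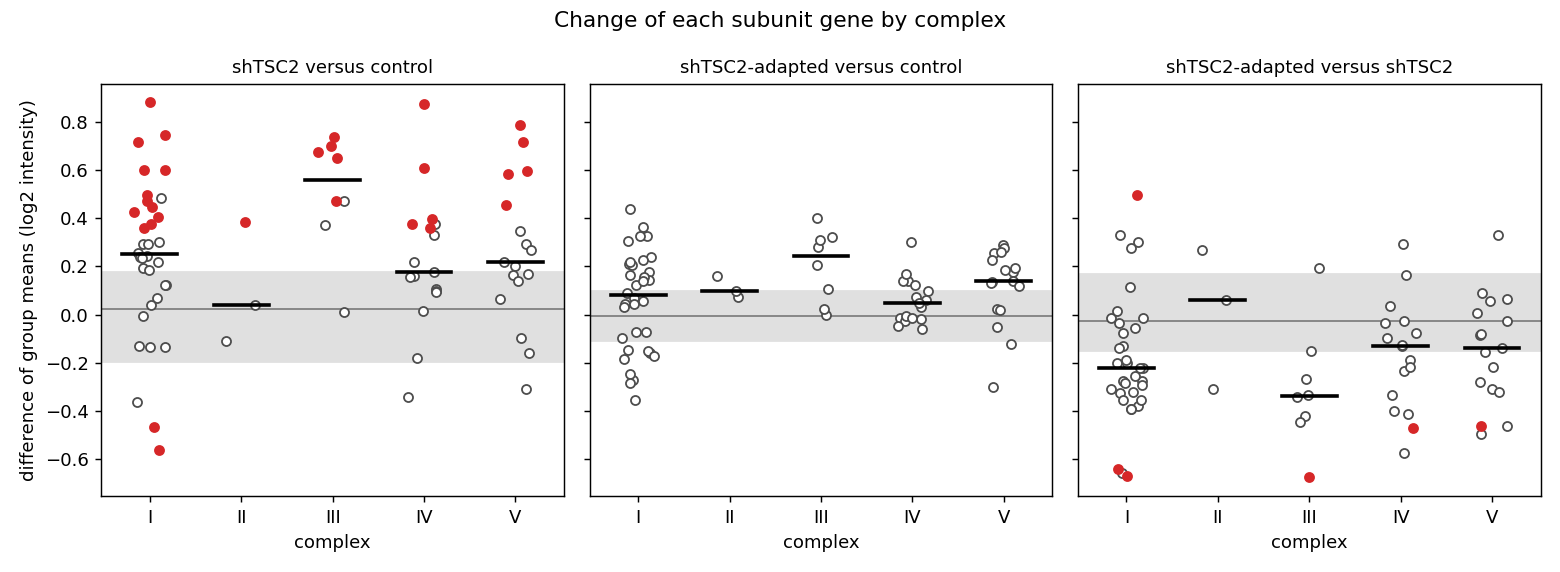
Difference of group means in log2 intensity (y axis) for each of the 79 subunit genes by complex (x axis) in the 3 comparisons. Red points passed an adjusted p of 0.05, black bars are medians, and the grey line and band are the median and quartiles of all 18417 genes. The left panel holds 28 red points above 0 and 2 below, the middle panel none, and the right panel 1 above and 5 below.

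In shTSC2-adapted against control no subunit gene passed (limma), where 0.0543% of all genes rose and 0.206% fell, so few calls were made at all. At an unadjusted p under 0.05, 9 of the 82 were higher and 1 lower, where 5.33% and 7.25% of all genes were. The lowest adjusted p was that of CYC1 (0.40, 95% interval 0.14 to 0.66, adjusted p = 0.183). The median over the 79 genes was 0.105, against -0.005 over all genes, with 56 positive, and by complex it was 0.24 in III, 0.14 in V, 0.10 in II, 0.08 in I and 0.05 in IV. Both adapted arrays lay above both control arrays in 36 of the 82 genes and below in 4, where 21.8% and 24.1% of all genes did. The median 95% interval of the 82 reached 0.30 to either side. NDUFS1 (0.305, 0.10 to 0.51), UQCRC2 (0.32, 0.08 to 0.56) and ATP5F1A (0.26, 0.03 to 0.49) had intervals above 0 without passing, the interval of NDUFA5 (-0.27, -0.48 to -0.06) lay below 0 without passing, and UQCRQ stood at 0.00 (-0.27 to 0.27). Of the marker lists, CD44 alone passed in this comparison (-1.04, adjusted p = 0.0341).

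Most subunit genes stood lower in the adapted than in the fresh knockdown cells. In shTSC2-adapted against shTSC2, 5 of 82 genes fell and 1 rose, where 3.24% of all genes fell and 9.25% rose, and the median over the 79 was -0.20 against -0.03 over all genes, with 62 negative. This comparison and the first share the shTSC2 arrays. The falls were UQCRQ (-0.675, SE 0.12, adjusted p = 0.0114), NDUFA1 (-0.67, SE 0.15, adjusted p = 0.0278), NDUFB9 (-0.64, SE 0.14, adjusted p = 0.0281), COX6C (-0.47, SE 0.11, adjusted p = 0.0310) and ATP5ME (-0.46, SE 0.10, adjusted p = 0.0223). NDUFA1, an accessory subunit of the membrane arm, read 9.07 and 8.64 in control, 9.36 and 9.32 in shTSC2, and 8.59 and 8.75 in shTSC2-adapted, so the adapted arrays overlapped the control arrays. The rise was in NDUFV2 (0.495, SE 0.10, adjusted p = 0.0211), which had fallen in shTSC2 against control. Over the same comparison 4 of 8 epithelial markers rose, namely EPCAM (1.645), KRT19 (1.55), CDH1 (1.54) and CLDN7 (0.685), and 1 of 8 immune markers, FCER1G, fell (-0.675), and their part in these changes was not tested. Adapted arrays lay below shTSC2 arrays in 46 of the 82 genes and above in 8, where 27.1% and 25% of all genes did. The number of falls among the 82 was 17 with quantile normalization, where 5.11% of all genes fell, and 11 with median centring, where 4.46% did. With only the 4 arrays compared it was 2 (1.19% of all genes). It was 0 without the first adapted array (0.798% of all genes), 3 without the second (1.36%), 2 without either control array (1.19%), 2 without the first shTSC2 array (2.94%) and 9 without the second (4.85%). The rise of NDUFV2 passed in 11 of 17 alternatives.

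Subunit genes are short, and gene length went with the change in shTSC2. The median span of the 79 genes in the reference was 9.24 kb, against 27.3 kb for 16902 protein-coding genes. Across those genes, which are not independent, Spearman's rho between span and the shTSC2 change was -0.33, and within the 79 it was -0.24. In the shortest 25% of protein-coding genes, up to 9.98 kb, 17 of 41 subunit genes rose (41.5%) against 10.2% of all, with medians of 0.33 and 0.10. In the next 25%, up to 27.3 kb, 7 of 25 rose (28.0%) against 8.90%, and in the third, up to 71.1 kb, 3 of 10 against 6.25%. With the trend on gene span removed from each array, 22 of the 82 genes rose, where 6.51% of all genes did, and the median of the 79 was 0.19. SDHD, COX4I1, COX7C, ATP5MG, NDUFS7 and NDUFV1 then did not pass, and the median of complex III was 0.52.

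**Figure D4:**
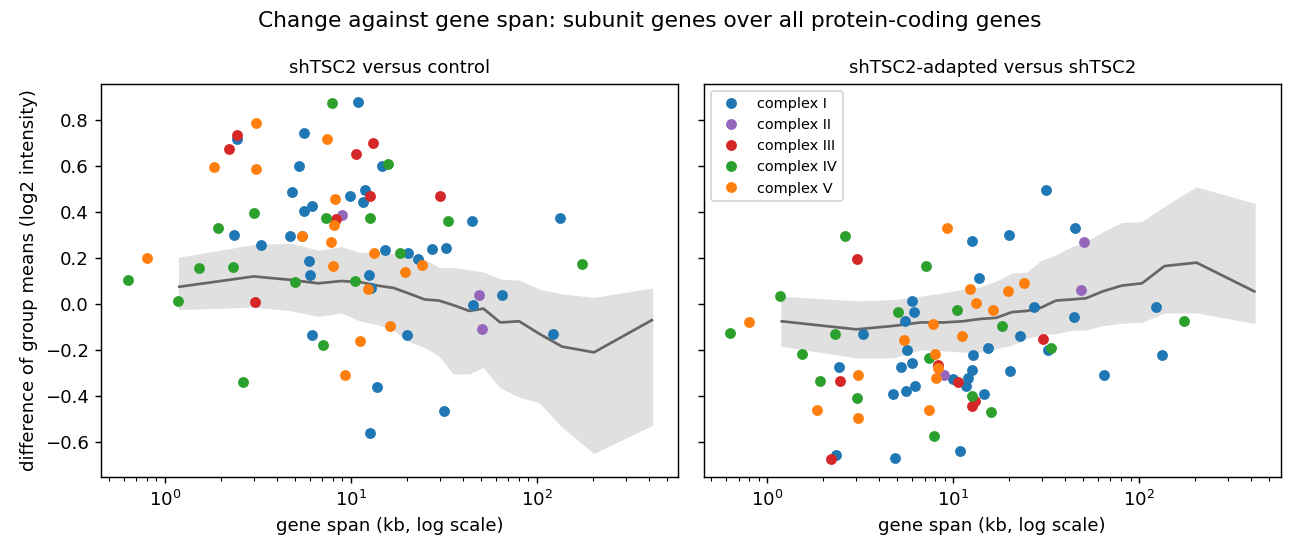
Difference of group means in log2 intensity (y axis) against gene span in kb (x axis, log scale) for the 79 subunit genes, coloured by complex, in shTSC2 versus control (left) and shTSC2-adapted versus shTSC2 (right). The grey line and band are the median and quartiles of all protein-coding genes in 20 bins of span; most subunit genes lie above the line on the left and below it on the right at the same span.

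Promoters were searched for 4 motifs known from these genes, since many members moved together. The windows ran from 250 bases before to 50 bases after the gene start in RefSeq (GRCh38.p14), and 66 of the 79 genes had one. The motifs were the core palindrome of NRF1 (the first run of capitals in the SDHD sequence), CCGGAAGT (ETS factors such as GABP), AAGATGGC (YY1) and AAGGTCA (estrogen-related receptors), each on both strands, and none contains another. At least 1 was found in 27 of 66 windows (40.9%), against 14.0% of 15843 windows of protein-coding genes. By motif the shares were 6.06% against 1.75% for NRF1, 15.2% against 6.19% for ETS, 15.2% against 3.91% for YY1, and 12.1% against 3.13% for AAGGTCA. Among genes that rose in shTSC2, 11 of 24 windows held a motif, and among the other subunit genes 16 of 42 did. The ETS motif was in 6 of 24 and 4 of 42. A match is a description of the letters and not a site of binding. The motifs were picked as known from these genes, so their higher share over all windows does not bear on the shTSC2 change. The 120 bases before the start are printed for SDHD, UQCRH and UQCRQ, examples of genes that rose and held an upstream match, and for ATP5MC1 and COX7B, which led their complexes and held none. The rise of SDHD did not pass on its second probe set, and whether the set kept reads SDHD was not tested. SDHD and ATP5MK are both among the 6 genes that rose and held an ETS motif. For ATP5MK too, what the set kept reads was not tested, though its second set passed. Capitals mark motif matches on either strand.
SDHD, chr11:112086753-112086872, plus strand, with NRF1 and ETS matches: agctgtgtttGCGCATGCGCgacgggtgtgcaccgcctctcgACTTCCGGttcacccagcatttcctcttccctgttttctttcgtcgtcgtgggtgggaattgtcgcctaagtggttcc
UQCRH, chr1:46303578-46303697, plus strand, with an ETS match: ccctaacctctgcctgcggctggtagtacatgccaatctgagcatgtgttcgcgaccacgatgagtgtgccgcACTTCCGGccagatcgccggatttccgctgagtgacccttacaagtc
UQCRQ, chr5:132866522-132866641, plus strand, with an ETS match: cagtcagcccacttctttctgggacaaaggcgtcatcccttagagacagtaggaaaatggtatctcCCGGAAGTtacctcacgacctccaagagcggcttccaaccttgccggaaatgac
ATP5MC1, chr17:48892667-48892786, plus strand: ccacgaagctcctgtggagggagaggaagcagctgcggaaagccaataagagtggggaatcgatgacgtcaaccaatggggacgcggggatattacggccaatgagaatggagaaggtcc
COX7B, chrX:77899348-77899467, plus strand: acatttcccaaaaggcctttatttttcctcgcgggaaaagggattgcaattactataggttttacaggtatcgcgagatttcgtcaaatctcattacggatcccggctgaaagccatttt

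Of 18 measured regulators of mitochondrial biogenesis, 4 rose in shTSC2 and 5 fell, where 6.87% and 13.9% of all genes did. Some of the 18 act on the nuclear genes and others, such as TFAM and POLG, inside mitochondria. TFAM, which packages and transcribes mitochondrial DNA, read 8.65 and 8.56 in control, 9.15 and 9.25 in shTSC2, and 8.52 and 8.69 in shTSC2-adapted (0.595, SE 0.10, adjusted p = 0.00737). POLG, the mitochondrial DNA polymerase (0.475, adjusted p = 0.0143), ESRRA, an estrogen-related receptor (0.415, adjusted p = 0.0185), and the PGC-1-related coactivator PPRC1 (0.385, adjusted p = 0.0314) also rose. GABPB2 (-0.85, adjusted p = 0.00714), TFB1M (-0.515, adjusted p = 0.0470), NRF1 (-0.41, adjusted p = 0.0283), GABPA (-0.38, adjusted p = 0.0357) and TFB2M (-0.35, adjusted p = 0.0439) fell. PPARGC1A, the gene of PGC-1 alpha, read at most 4.68, below the lower quartile of all genes. YY1 stood at 0.235 (95% interval -0.10 to 0.57, adjusted p = 0.30), and no regulator passed in shTSC2-adapted against control. In the alternatives that kept all arrays of both groups, the regulators that rose in shTSC2 numbered 3 to 4 and those that fell 1 to 5. Without either control array, the counts were 0 rises and 0 falls, and without the first shTSC2 array they were 4 and 1.

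Assembly factors build the complexes without staying in them. Of 16 for complex I, 2 rose and 2 fell in shTSC2, where 6.87% and 13.9% of all genes did: NDUFAF6 (0.50, adjusted p = 0.0209) and NDUFAF3 (0.385, adjusted p = 0.0252) rose, while NDUFAF1 (-0.935, SE 0.17, adjusted p = 0.00751) and NUBPL, an iron-sulfur cluster carrier for complex I (-0.845, SE 0.11, adjusted p = 0.00256), fell. Both rose in shTSC2-adapted against shTSC2, which shares the shTSC2 arrays, NDUFAF1 by 0.91 (adjusted p = 0.0141) and NUBPL by 0.84 (adjusted p = 0.00518). There 9.25% of all genes rose and 3.24% fell. Of the factors for the other complexes, UQCC1 rose (0.57), and COX20 (-0.63), COX18 (-0.355) and SDHAF4 (-0.46) fell in that comparison. Of 18 factors for complex IV, 4 rose and none fell in shTSC2 against control. They were led by COX20 (0.89, adjusted p = 0.00562) and COX18 (0.575, adjusted p = 0.00464), which handle the mitochondrially encoded subunit 2. For complex III, BCS1L, which inserts the iron-sulfur protein, rose by 0.555 (adjusted p = 0.00897) and UQCC1 fell by 0.54 (adjusted p = 0.0151), of 6 measured. Of 4 genes listed for complex V, TMEM70 rose (0.58, adjusted p = 0.0158). So did ATP5IF1 (0.505, adjusted p = 0.0288), which is an ATPase inhibitor and not an assembly factor. None of the 3 for complex II passed in shTSC2 against control. Without either control array, 0 rises among the complex I factors and 1 among the complex IV factors passed. The complex IV count was 2 without the second shTSC2 array or either adapted array. The complex I rises were 1 without the second shTSC2 array and 3 without the first, and the complex I falls were 1 without the second control array. The rise of the complex III factor did not pass without the second control array, nor its fall without either control array. The complex V rises were 1 without the first control array or the first shTSC2 array and 0 without the second control array.

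Of 14 genes for electron carriers and ubiquinone synthesis, 6 rose and 3 fell in shTSC2, where 6.87% and 13.9% of all genes did. The counts were 3 and 1 without either control array and 3 and 3 without the first shTSC2 array. CYCS, cytochrome c, read 8.65 and 8.74 in control, 9.59 and 10.03 in shTSC2, and 9.29 and 9.26 in shTSC2-adapted, a rise of 1.115 (SE 0.15, adjusted p = 0.00239). COQ7, a hydroxylase of ubiquinone synthesis, read 8.04 and 8.10 in control, 6.55 and 6.89 in shTSC2, and 7.48 and 7.66 in shTSC2-adapted, a fall of 1.35 (SE 0.13, adjusted p = 0.000955). The subunits of the enzyme that makes the ubiquinone tail moved apart, PDSS1 rising by 0.75 (adjusted p = 0.00234) and PDSS2 falling by 0.755 (adjusted p = 0.0144). Of 16 genes of pyruvate dehydrogenase and the citric acid cycle, 6 rose and 3 fell, among them PDHA1 (0.665, adjusted p = 0.00648) and SUCLG1 (0.595, adjusted p = 0.00729), which rose, and SUCLA2 (-0.95, adjusted p = 0.00331) and PDHB (-0.735, adjusted p = 0.00258), which fell. The citric acid cycle counts were 2 rises and 2 falls without the first control array, 0 and 2 without the second, and 3 and 2 without the first shTSC2 array, and the falls were 2 without any other array. Of 11 genes of the hypoxic control of respiration, ISCU, an iron-sulfur cluster scaffold (0.73, adjusted p = 0.00248), and CHCHD4, an import factor (0.43, adjusted p = 0.0257), rose and HIF1A fell by 0.82 (adjusted p = 0.00732), while PDK1, which restrains pyruvate entry, stood at 0.025 (adjusted p = 0.914). The rises of the hypoxic list were 1 without either control array or the second shTSC2 array, and its fall was 0 without the second control array and 2 without the second shTSC2 array. In shTSC2-adapted against control none of the genes on these lists passed.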

How the data were processed

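Each value the authors deposited is a probe set's intensity on 1 array, linear in scale and RMA-normalized per the submitters' processing notes. Not given in the sources used here are the RMA version, the probe definition and the build. RMA equalises the arrays, so a change shared by most genes is partly removed. All log2 values were rounded to 2 decimals, a shift of at most 6.99e-10. Of 33297 probe sets, 19460 had 1 gene symbol in the platform annotation, 1754 several, and 12083 are unnamed here. The brightest set stood for each of 18417 genes. Subunit genes have many processed pseudogenes, and probe sets that also match such copies are uncertain; the second sets of NDUFB4 and NDUFV2 nearly repeated the first. Gene spans came from RefSeq (GRCh38.p14).

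Using lmFit, contrasts.fit and eBayes of limma 3.58.1 (R 4.3.3), a group-means model took in the 6 arrays, with 3 residual degrees of freedom and Benjamini-Hochberg adjustment over all genes, and was tested on simulated data. Arrays have no read depth, and their number limits the precision. Members and lists were chosen with earlier results of these data known. Named were, per comparison and complex, the 3 largest rises and 2 largest falls that passed without overlap of arrays, the core subunits and isoform sets, and the 2 largest rises and falls of each pathway list; other genes were named after their values were seen. Alternatives were other scalings, filters, probe set rules, variance models, a span trend, a replicate block and leaving out each array.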

Additional observations from a re-analysis of the deposited data

How the results depend on the processing

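The count of 28 rises in shTSC2 against control stayed within 22 to 35 in the 11 alternatives that kept all arrays of both groups, and ranged from 2 to 28 when an array was left out, the lowest being without the second control array. The 2 falls became 0 with quantile normalization and ranged from 0 to 2 when an array was left out. No member passed in shTSC2-adapted against control under any of the 17 alternatives. In shTSC2-adapted against shTSC2, the 5 falls became 17 with quantile normalization, 11 with median centring, 11 with genes under the median level left out, 2 with only the 4 arrays compared, 3 with array weights, and 0 to 9 when an array was left out. The 1 rise became 0 with only the 4 arrays compared and 0 to 3 when an array was left out. Where an array was left out, the lone array of its group was assumed to vary like the other groups. For a comparison of the other groups, leaving out either array of the group not compared gives the same fit as only the 4 arrays compared. These alternatives are thus not separate checks among the 17. The causes were not tested.

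The array numbers shared by the groups are not shown to pair them: the difference of the second and first arrays correlated across genes at -0.10 between control and shTSC2, -0.19 between control and shTSC2-adapted, and 0.21 between shTSC2 and shTSC2-adapted. With the number as a replicate block, 24 members rose and 2 fell in shTSC2 and 1 rose and 4 fell in shTSC2-adapted against shTSC2. With the control numbers crossed in the block, added after the data were seen, the counts were 29, 2, 1 and 8. The TSC2 call in shTSC2-adapted against control (adjusted p = 0.0241, limma) did not pass with the replicate block (0.0515) and ranged from 0.0144 to 0.386 when an array was left out. Every member's difference rests on 2 arrays a group, and 1 of the 30 called in shTSC2, CYC1, passed in all 17 alternatives.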
